A study of Mus musculus with 108 samples.

Results

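Amacrine cells are the retina's inhibitory interneurons, and 9 genes that mark them or the wider class of inhibitory neurons were followed through glaucoma in mice. The genes were chosen by name: Gad1, Gad2, Slc32a1, Slc6a9, Chat, Tfap2b, Calb1, Calb2 and Pvalb. They are 9 of 18194 genes that have a probe set of their own on the array, and they carry 19 of its 45101 probe sets. RNA was measured on 108 Affymetrix mouse arrays, of which 60 held optic nerve head (ONH) and 48 held retina, from 60 eyes of 50 mice. The ONH was cut out as a small disc centred on the nerve, so it also held some central retina, choroid and sclera. The retina was taken without the ONH, and 48 eyes gave both tissues.

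All mice were labelled female and of the DBA/2J strain, which develops an inherited iris disease, raised eye pressure and loss of retinal ganglion cells with age. No drug or surgery is named in the labels. The controls were D2-Gpnmb+ mice of 10.5 months, the same strain with a working Gpnmb gene and no glaucoma, with 10 ONH and 10 retina arrays. Preglaucoma DBA/2J mice of 4.5 months gave 10 ONH arrays, and no retina arrays of them were analysed here. The glaucoma eyes came from DBA/2J mice of 10.5 months. Gpnmb genotype thus goes with every comparison against control and cannot be told apart from stage there. No or early glaucoma was divided into set 1, with 10 ONH and 10 retina arrays, and set 2, with 11 and 10. The labels do not say how these sets were divided, and they were used as an equal-weight mean. Moderate eyes gave 9 ONH and 8 retina arrays, and severe eyes gave 10 and 10.

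GABA and glycine are the inhibitory transmitters of the retina, and most amacrine cells use 1 of them. GABA is made from glutamate by the enzymes GAD67, encoded by Gad1, and GAD65, encoded by Gad2, and both transmitters are loaded into vesicles by VGAT, encoded by Slc32a1. Slc6a9 encodes the glycine transporter GLYT1, which marks glycinergic amacrine cells, and Chat encodes the enzyme that makes acetylcholine in starburst amacrine cells. Tfap2b encodes an AP-2 transcription factor of amacrine and horizontal cells. Calb1, Calb2 and Pvalb encode the calcium-binding proteins calbindin, calretinin and parvalbumin. In the mouse retina calbindin also marks horizontal cells, and calretinin and parvalbumin are also made by many retinal ganglion cells, so these last members are not specific to amacrine cells. Starburst and other cells whose bodies lie in the ganglion cell layer are known as displaced amacrine cells.

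The deposited values were log2 signals after robust multi-array averaging, so a difference of 1 is a 2-fold difference in signal. Array medians ran from 4.88 to 5.23 in the ONH and from 5.02 to 5.16 in the retina. They were 4.88 to 4.94 in preglaucoma and 5.02 to 5.09 in control ONH. By correlation with their own group, 8 ONH arrays and 3 retina arrays stood apart. These were ONH control replicate 10, preglaucoma replicate 5, no or early 2 replicates 7 and 8, moderate replicates 5 and 8, severe replicates 3 and 6, retina no or early 2 replicates 3 and 10, and retina moderate replicate 2. The 2 eyes of 1 mouse in the severe group had Xist signals far below those of the other severe arrays in both tissues, against that label. By distance below the tissue median, 3 ONH and 5 retina arrays counted as low in Xist, that mouse included. The others were ONH control replicate 10 at 10.79, retina control replicate 10 at 11.31, retina no or early 2 replicate 3 at 11.49 and retina moderate replicate 1 at 11.71. All 7 control mice carried numbers from 1 range of the mouse numbering, which 2 mice each of the moderate and severe groups shared. The severe mice of that range were the mouse of low Xist, with replicates 4 and 5, and the mouse of severe replicate 3.

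Of the 9 members, 8 passed the filter on low signal (at least 8 arrays at or over a log2 signal of 5) in both tissues. Chat did not. Its signal ran from 2.62 to 4.00 over the retina arrays and from 2.50 to 3.31 over the ONH arrays, so no comparison was made for it. Slc18a3 and Slc5a7, which encode the acetylcholine vesicle and choline transporters of the same cells, also lay below the filter in both tissues.

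Pvalb and Calb2 were the members that fell most in the retina, and both fell from moderate to severe glaucoma. In bulk tissue, fewer cells of a type and less RNA per cell cannot be told apart. Pvalb lay at a lowest of 8.10, a median of 8.19 and a highest of 8.41 in control retina. It lay at 7.92, 8.18 and 8.38 in no or early set 1 and at 7.92, 8.15 and 8.60 in set 2. It lay at 6.67, 7.45 and 7.89 in moderate eyes and at 5.28, 5.63 and 6.34 in severe eyes. Moderate eyes were all below the controls, and severe eyes were all below the moderate eyes. Groups without overlap occurred in 1.38% of all genes between moderate and control, 7.29% between severe and control, and 3.67% between severe and moderate eyes. Relative to control, Pvalb fell by 0.80 ± 0.12 (SE, limma, adjusted p = 4.36e-06) in moderate eyes. It fell by 2.51 ± 0.113 in severe eyes (adjusted p = 4.69e-23), a 5.71-fold lower signal. Severe against moderate eyes gave -1.72 ± 0.119 (adjusted p = 1.03e-15).

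Calb2 took the same order of stages with a smaller span. Its lowest, median and highest were 9.19, 9.33 and 9.48 in control retina, 9.21, 9.33 and 9.40 in no or early set 1, and 9.06, 9.37 and 9.62 in set 2. They were 7.24, 8.80 and 8.99 in moderate eyes and 7.63, 7.75 and 8.14 in severe eyes. All moderate and all severe eyes lay below every control, while moderate replicate 2, at 7.24, lay below every severe eye. Calb2 fell by 0.70 ± 0.121 in moderate eyes (adjusted p = 4.56e-05) and by 1.52 ± 0.114 in severe eyes (adjusted p = 6.61e-15), a 2.87-fold lower signal. Within the mouse number range of the controls, the severe difference was -1.59 ± 0.0785 for Calb2 and -2.63 ± 0.101 for Pvalb. That range held only severe replicates 3, 4 and 5, from 2 mice, and replicates 4 and 5 were low in Xist. The moderate difference within that range was -0.55 ± 0.0967 for Calb2 (adjusted p = 0.00707) and -0.53 ± 0.124 for Pvalb (adjusted p = 0.0387).

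Markers of retinal ganglion cells moved with these members. The mean of the 11 measured markers was 8.95 ± 0.0392 (SD, n = 10) in control retina, 8.55 ± 0.183 (n = 8) in moderate eyes and 6.55 ± 0.366 (n = 10) in severe eyes. All 11 were lower in severe eyes, among them Slc17a6, the vesicular glutamate transporter of ganglion cells, by -3.66 ± 0.143 (adjusted p = 1.81e-25), and Pou4f1, a ganglion cell transcription factor, by -3.63 ± 0.142 (adjusted p = 1.81e-25). Over the 48 retina arrays Pvalb correlated with the marker mean at r = 0.975 and Calb2 at r = 0.918, with the stages shared by both measures. After removal of the group means, r was 0.647 for Pvalb and 0.548 for Calb2. Calb2 then correlated more with the means of bipolar cell markers (r = 0.779) and photoreceptor markers (r = 0.758). Moderate replicate 2 was the lowest retina array for Calb2, at 7.24, and for both of these means, at 8.95 and 10.475. The share of that array in these correlations was not tested. For Pvalb the correlations with the bipolar and photoreceptor means were 0.40 and 0.435. The part of ganglion cells in these 2 members was not tested.

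The genes of GABA synthesis did not pass the test in severe against control retina. Gad1 lay at a lowest of 10.32, a median of 10.47 and a highest of 10.58 in controls, at 9.15, 10.45 and 10.62 in moderate eyes, and at 10.53, 10.58 and 10.74 in severe eyes. Severe eyes overlapped the controls at their upper end, and 5 of 10 lay above every control. The difference was 0.16 ± 0.0947 (95% interval -0.03 to 0.35, adjusted p = 0.209). Without the 3 retina arrays that stood apart it was 0.16 ± 0.0478 and passed the test (adjusted p = 0.00924). A second Gad1 probe set gave -0.02 ± 0.122 for the same comparison (adjusted p = 0.925).

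Gad2 lay at 10.15, 10.33 and 10.37 in control retina, at 9.01, 10.12 and 10.30 in moderate eyes, and at 9.89, 10.24 and 10.45 in severe eyes. The 3 groups overlapped. The severe difference was -0.09 ± 0.0907 (95% interval -0.27 to 0.09, adjusted p = 0.482). The probe sets of Gad2 disagreed, since the other probe set was higher in severe than in control eyes by 0.46 ± 0.126 (adjusted p = 0.00554 over all probe sets). In moderate eyes Gad2 fell by 0.32 ± 0.0959 (adjusted p = 0.0179). Without the arrays that stood apart, which include moderate replicate 2 at 9.01, that value was -0.18 ± 0.0641 and no longer passed (adjusted p = 0.0618).

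The vesicular transporter Slc32a1 was slightly lower in severe retina. It lay at 7.52, 7.58 and 7.98 in controls, at 6.66, 7.66 and 7.83 in moderate eyes, and at 7.22, 7.40 and 7.60 in severe eyes. Of the 10 severe eyes, 9 lay below every control. Slc32a1 fell by 0.25 ± 0.0931 (adjusted p = 0.0344), a 1.19-fold lower signal. With the number range of the mice in the model it was -0.22 ± 0.111 (adjusted p = 0.138). Without the 5 retina arrays of low Xist, control replicate 10 among them, it was -0.23 ± 0.101 (adjusted p = 0.0777). Within the control range alone it was -0.30 ± 0.0933 (adjusted p = 0.0307).

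The glycine transporter gene Slc6a9 did not pass the test at any stage against control in the retina. Its lowest, median and highest were 11.75, 11.91 and 12.08 in controls, 10.99, 11.89 and 12.01 in moderate eyes, and 11.79, 11.89 and 12.06 in severe eyes. Severe eyes lay inside the range of the controls. The severe difference was -0.02 ± 0.0673 (95% interval -0.16 to 0.11, adjusted p = 0.818).

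Tfap2b was the 1 member that was higher in severe retina. It lay at 9.98, 10.03 and 10.16 in controls, at 9.13, 9.98 and 10.08 in moderate eyes, and at 10.09, 10.30 and 10.36 in severe eyes. Of the 10 severe eyes, 9 lay above every control, and all lay above every moderate eye. Tfap2b rose by 0.23 ± 0.0736 against control (adjusted p = 0.0155), a 1.17-fold higher signal, and by 0.25 ± 0.0634 against no or early eyes (adjusted p = 0.00113). Its second probe set gave 0.05 ± 0.0968 against control (adjusted p = 0.754), and the mean of both probe sets gave 0.14 with an adjusted p of 0.151.

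Calb1 lay at 9.82, 9.96 and 10.10 in control retina, at 7.39, 9.77 and 10.02 in moderate eyes, and at 9.37, 9.86 and 10.01 in severe eyes. Moderate replicate 2 stood more than 1 unit below every other retina array. Calb1 fell by 0.53 ± 0.169 in moderate eyes (adjusted p = 0.0262), and by 0.23 ± 0.0764 without the arrays that stood apart (adjusted p = 0.0394). With the number range of the mice in the model the moderate difference was -0.38 ± 0.201 (adjusted p = 0.27). In severe eyes it was -0.12 ± 0.16 (95% interval -0.44 to 0.20, adjusted p = 0.601).

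**Figure D1:**
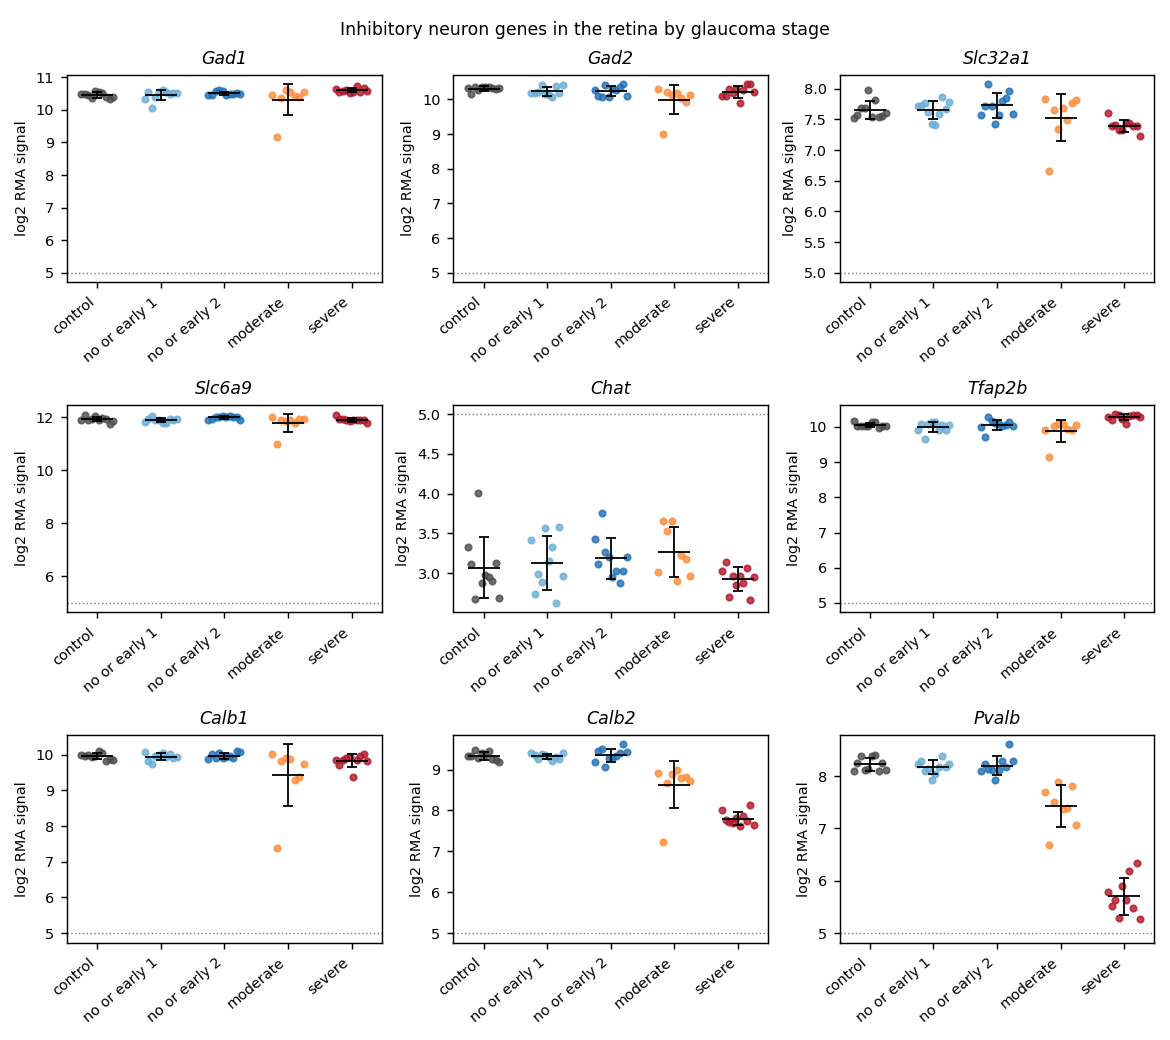
Log2 signal of the 9 genes in each retina array by stage, with the mean and SD of each group as bars and the filter level of 5 as a dotted line. Pvalb and Calb2 step down through moderate to severe eyes, the other tested genes stay close to the controls in severe eyes, Chat lies below the filter, and moderate replicate 2 is the lowest array for 8 of the genes shown in the moderate group.

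Counted over the 8 tested members, severe against control retina gave 1 higher, 3 lower and 4 that did not pass. Of all 11322 genes tested, 32.0% were called in this comparison 18.2% were called lower and 13.8% higher. The median difference of the members was -0.10, beside -0.02 for all genes. Moderate against control gave 4 lower members, Pvalb, Calb2, Calb1 and Gad2, beside 15.5% of all genes called and 8.40% called lower. Severe against no or early eyes likewise gave 1 higher and 3 lower members, beside 44.1% called. Severe against moderate eyes gave 3 higher members, Calb1, Gad1 and Tfap2b, and 2 lower, beside 38.3% called. Of the 3 higher values, that of Calb1 (0.41, adjusted p = 0.0488) lost its call in 10 of 11 alternatives and that of Gad1 (0.29, adjusted p = 0.0191) in 5 of 11. They were 0.11 (adjusted p = 0.252) and 0.12 (adjusted p = 0.0578) without the arrays that stood apart.

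Promoter sequence is shown for 4 members that behaved differently in severe retina: Pvalb, which fell, Tfap2b, which was higher, and the GABA enzyme genes Gad1 and Gad2, which did not pass. RefSeq windows on GRCm38.p6, from 250 bases before to 50 after the start of transcription, were matched by symbol for 7 members, with 10 windows. They lie at chr15:78206351-78206650 on the minus strand for Pvalb, the first of 2 windows, and on the plus strand at chr1:19211804-19212103 for Tfap2b, chr2:70561879-70562178 for Gad1 and chr2:22622077-22622376 for Gad2. Capitals mark matches on either strand to GCCNNNGGC, a site of AP-2 factors such as the Tfap2b protein, and to ATTAAT, an AT-rich core of the sites that the BRN3 factors of ganglion cells bind. No match of one motif overlaps a match of the other in these windows.
Pvalb: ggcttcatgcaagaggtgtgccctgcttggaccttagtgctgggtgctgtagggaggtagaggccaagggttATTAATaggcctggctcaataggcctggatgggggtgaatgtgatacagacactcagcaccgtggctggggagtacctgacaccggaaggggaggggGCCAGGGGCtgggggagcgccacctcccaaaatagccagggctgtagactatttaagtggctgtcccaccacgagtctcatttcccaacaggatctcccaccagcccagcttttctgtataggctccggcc
Tfap2b: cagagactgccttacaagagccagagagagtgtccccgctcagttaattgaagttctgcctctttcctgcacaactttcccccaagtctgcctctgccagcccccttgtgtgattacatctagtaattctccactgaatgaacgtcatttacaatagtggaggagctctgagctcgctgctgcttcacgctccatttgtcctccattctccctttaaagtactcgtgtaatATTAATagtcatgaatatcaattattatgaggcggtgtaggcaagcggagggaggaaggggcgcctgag
Gad1: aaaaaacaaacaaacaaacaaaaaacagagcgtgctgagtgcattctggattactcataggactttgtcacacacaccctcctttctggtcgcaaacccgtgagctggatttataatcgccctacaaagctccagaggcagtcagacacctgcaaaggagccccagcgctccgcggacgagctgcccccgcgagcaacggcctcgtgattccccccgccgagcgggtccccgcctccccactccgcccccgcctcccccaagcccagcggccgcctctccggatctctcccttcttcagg
Gad2: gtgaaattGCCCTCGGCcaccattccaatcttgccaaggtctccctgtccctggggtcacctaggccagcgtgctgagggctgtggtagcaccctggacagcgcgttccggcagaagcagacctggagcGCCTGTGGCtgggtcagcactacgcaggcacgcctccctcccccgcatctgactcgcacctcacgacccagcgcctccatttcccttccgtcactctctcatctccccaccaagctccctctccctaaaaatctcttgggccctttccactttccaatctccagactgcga
The Pvalb window holds 1 AP-2 match and 1 ATTAAT match. The Tfap2b window holds 1 ATTAAT match and no AP-2 match, the Gad2 window holds 2 AP-2 matches, and the Gad1 window holds neither. The second Pvalb window holds 1 AP-2 match and no ATTAAT match, and the windows of Slc32a1, Slc6a9 and Chat hold neither. Of 32851 windows in the table, 16.6% hold an AP-2 match and 4.75% hold ATTAAT. These matches describe the letters only.

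In the ONH all 8 tested members were lower in severe eyes than in controls. Among all 12100 genes tested, 24.2% were called in this comparison and 13.5% were called lower. The median difference of the members was -1.69, beside 0.00 for all genes. The spread between severe arrays was wide, and replicates 3 and 6 had low signal for most members. Severe against no or early ONH also gave 8 lower members, beside 13.2% of all genes called. That count was 2 within the control range of mouse numbers, beside 2.01% of all genes called in that setting. It was 6 without the arrays that stood apart, beside 19.8% of all genes, and 4 with the bipolar marker mean as a covariate. Over all alternative settings, that covariate included, 2.01% to 19.8% of all genes were called.

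Gad1 lay at a lowest of 8.78, a median of 9.79 and a highest of 10.05 in control ONH, at 7.88, 8.84 and 9.79 in moderate eyes, and at 3.57, 8.65 and 9.38 in severe eyes. Severe replicate 6 was at 3.57 and replicate 3 at 5.46, and 3 of the other 8 severe arrays also lay below every control. Gad1 fell by 1.73 ± 0.384 (adjusted p = 0.00045), a 3.31-fold lower signal. Without the 8 ONH arrays that stood apart, the fall was -0.95 ± 0.183 (adjusted p = 6.3e-05). Gad2 lay at 8.42, 9.47 and 9.83 in controls and at 3.74, 8.55 and 9.39 in severe eyes. Only 3 of 10 severe arrays lay below every control. Gad2 fell by 1.64 ± 0.416 (adjusted p = 0.00201), and by 0.79 ± 0.195 without the arrays that stood apart (adjusted p = 0.00163).

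Slc32a1 lay at 6.17, 6.55 and 7.27 in control ONH and at 3.25, 5.66 and 6.31 in severe eyes, and 8 of 10 severe arrays were below every control. It fell by 1.36 ± 0.27 (adjusted p = 9.63e-05). Slc6a9, at 11.58, 11.88 and 12.22 in controls, lay at 10.15, 11.42 and 11.79 in severe eyes, with 6 of 10 below every control. It fell by 0.60 ± 0.133 (adjusted p = 0.000485), the smallest change among the members. Within the control range of mouse numbers, Slc6a9 was -0.44 ± 0.149 and did not pass (adjusted p = 0.0671), while the other 7 members did. The severe arrays of that range were replicate 3, which stood apart, and replicates 4 and 5, which were low in Xist.

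Tfap2b lay at 8.08, 9.17 and 9.49 in control ONH and at 4.47, 8.29 and 8.89 in severe eyes. It fell by 1.37 ± 0.319 (adjusted p = 0.000788), and by 0.77 ± 0.178 without the arrays that stood apart (adjusted p = 0.000732). Calb1 lay at 7.31, 8.92 and 9.34 in controls and at 3.10, 7.61 and 8.19 in severe eyes. It fell by 1.86 ± 0.377 (adjusted p = 0.000125), and by 1.22 ± 0.207 without those arrays (adjusted p = 7.73e-06). Severe groups of both genes overlapped the controls.

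Calb2 was the 1 member whose severe ONH arrays all lay below every control. It lay at 8.04, 8.90 and 9.56 in controls, at 8.44, 8.68 and 9.46 in preglaucoma, at 6.89, 7.44 and 9.07 in moderate eyes, and at 4.09, 6.35 and 6.76 in severe eyes. It fell by 1.20 ± 0.264 in moderate eyes (adjusted p = 0.000656) and by 3.09 ± 0.258 in severe eyes (adjusted p = 1.54e-14), an 8.49-fold lower signal. Groups without overlap occurred in 2.59% of all genes in this comparison. Without the arrays that stood apart, the severe difference was -2.75 ± 0.178.

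Pvalb lay at 7.41, 8.09 and 8.68 in control ONH, at 6.61, 7.39 and 8.25 in moderate eyes, and at 5.22, 5.70 and 7.50 in severe eyes. Severe replicate 6, at 7.50, was the 1 severe array inside the control range, and the other 9 lay below it. Pvalb fell by 0.75 ± 0.197 in moderate eyes (adjusted p = 0.00418) and by 2.19 ± 0.192 in severe eyes (adjusted p = 9.12e-14), a 4.57-fold lower signal. Parvalbumin is also a protein of fast skeletal muscle, and the other 5 genes of a muscle list were looked up after this value was seen. In severe replicate 6, Tnnt3, a troponin of fast muscle, was at 5.82 and Mylpf, a fast muscle myosin light chain, at 5.66, while their highest control values were 3.84 and 4.54. Acta1 and Myh4 were also highest there among the severe arrays, at 4.91 and 4.37, and Ckm, at 3.59, lay within the range of the others. The part of muscle in the Pvalb value of that array was not tested.

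**Figure D2:**
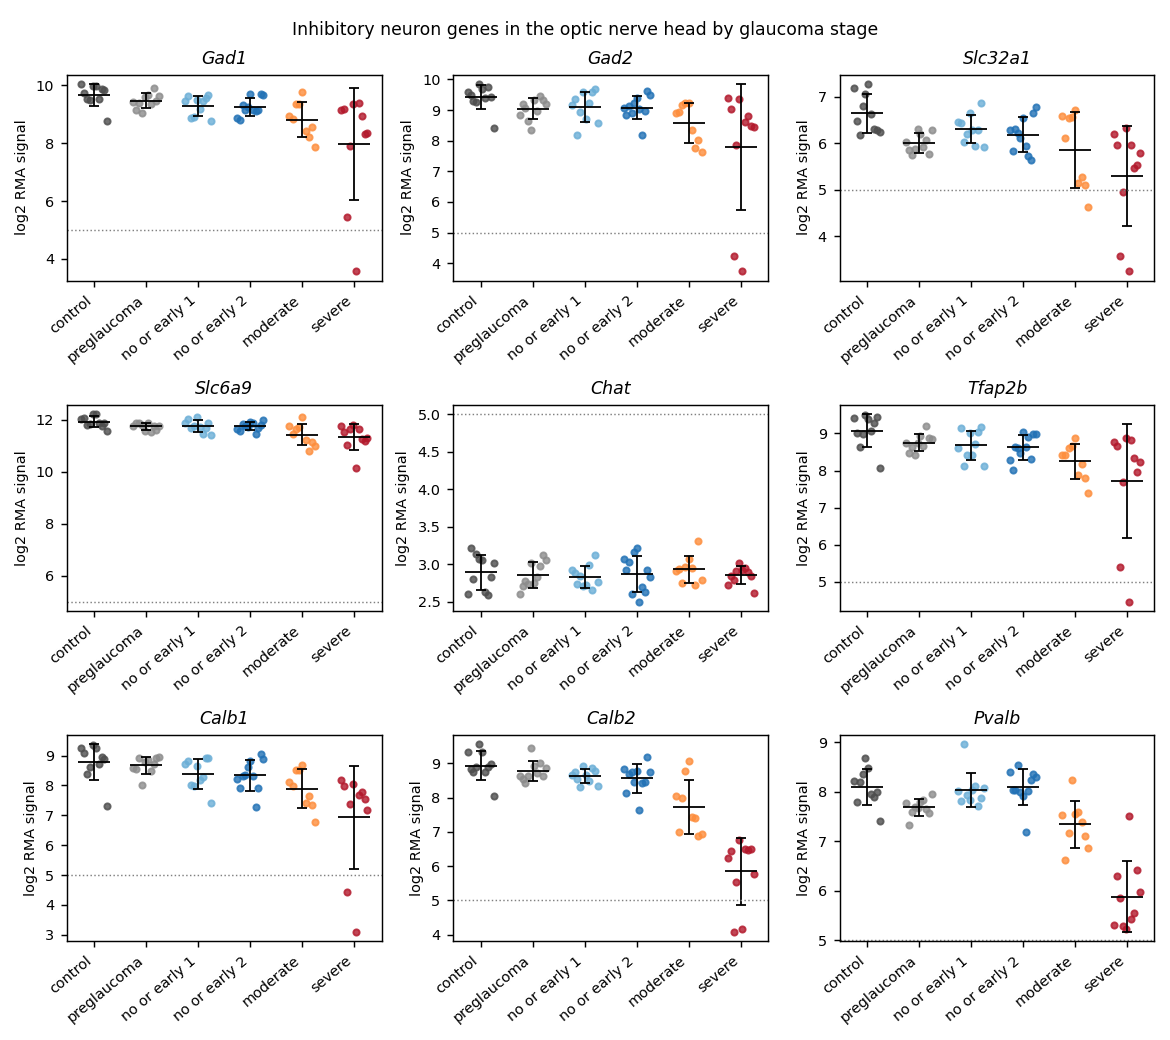
Log2 signal of the 9 genes in each ONH array by stage, with group mean and SD as bars and the filter level of 5 as a dotted line. Severe replicates 3 and 6 lie far below the other severe arrays for Gad1, Gad2, Tfap2b and Calb1, whereas Pvalb in replicate 6, at 7.50, is the highest of its group.

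Markers of other retinal neurons were also lower in severe ONH. The mean of 9 bipolar cell markers was 8.85 ± 0.426 (SD, n = 10) in control and 7.93 ± 1.09 (n = 10) in severe ONH, where it ran from 5.40 in replicate 6 to 8.79 in replicate 5. Of these markers, 7 of 9 were lower in severe eyes and none was higher. The mean of 13 photoreceptor markers was 8.65 ± 0.697 and 8.32 ± 1.803, with 3.65 in replicate 6 and 6.89 in replicate 3, and none of the 13 passed the test. Of other lists in severe against control ONH, 6 of 6 melanocyte and 5 of 6 pigment epithelium markers were lower, beside 13.5% of all genes. There 5 of 8 microglia markers were higher, beside 10.7%. The melanocyte mean was 8.59 in control, 6.02 and 5.69 in no or early sets 1 and 2, and 5.53 in severe ONH. In the same order the microglia mean was 7.16, 7.71, 7.77 and 7.73. Both means thus lay away from control in no or early eyes, and these means were not tested. In preglaucoma ONH, from mice of 4.5 months, the melanocyte mean was 8.29 and the microglia mean 7.62. In the retina, the bipolar mean was 9.75 ± 0.0433 in control and 9.78 ± 0.0386 in severe eyes. With the bipolar mean as a covariate, an adjustment chosen after the data were seen, 4 members kept their call in severe against control ONH. These were Calb2 at -2.35 ± 0.192, Pvalb at -2.39 ± 0.206, Calb1 at -0.52 ± 0.114 and Slc32a1 at -0.49 ± 0.155. The other 4 did not pass, with Gad1 at -0.43 (adjusted p = 0.0857), Tfap2b at -0.31 (adjusted p = 0.177), Gad2 at -0.24 (adjusted p = 0.436) and Slc6a9 at -0.17 (adjusted p = 0.116). Over all alternative settings, this covariate included, 12.2% to 29.6% of all genes were called in this comparison.

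The members other than Pvalb varied together from array to array in the ONH. Within groups, over 60 arrays that share dissection and labelling steps, Gad1 correlated with Tfap2b at r = 0.972, with Gad2 at 0.948 and with Calb1 at 0.948. Gad1 correlated with the bipolar mean at r = 0.92. Pvalb correlated with the same mean at r = -0.33, and with Gad1 at r = -0.364 and a rank correlation of -0.0338. Calb2 stood between, with r = 0.759 to the bipolar mean and 0.781 to the ganglion cell marker mean. The ganglion cell mean in the ONH was 9.04 ± 0.195 (n = 10) in control, 8.43 ± 0.40 (n = 9) in moderate and 6.66 ± 0.35 (n = 10) in severe eyes.

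**Figure D3:**
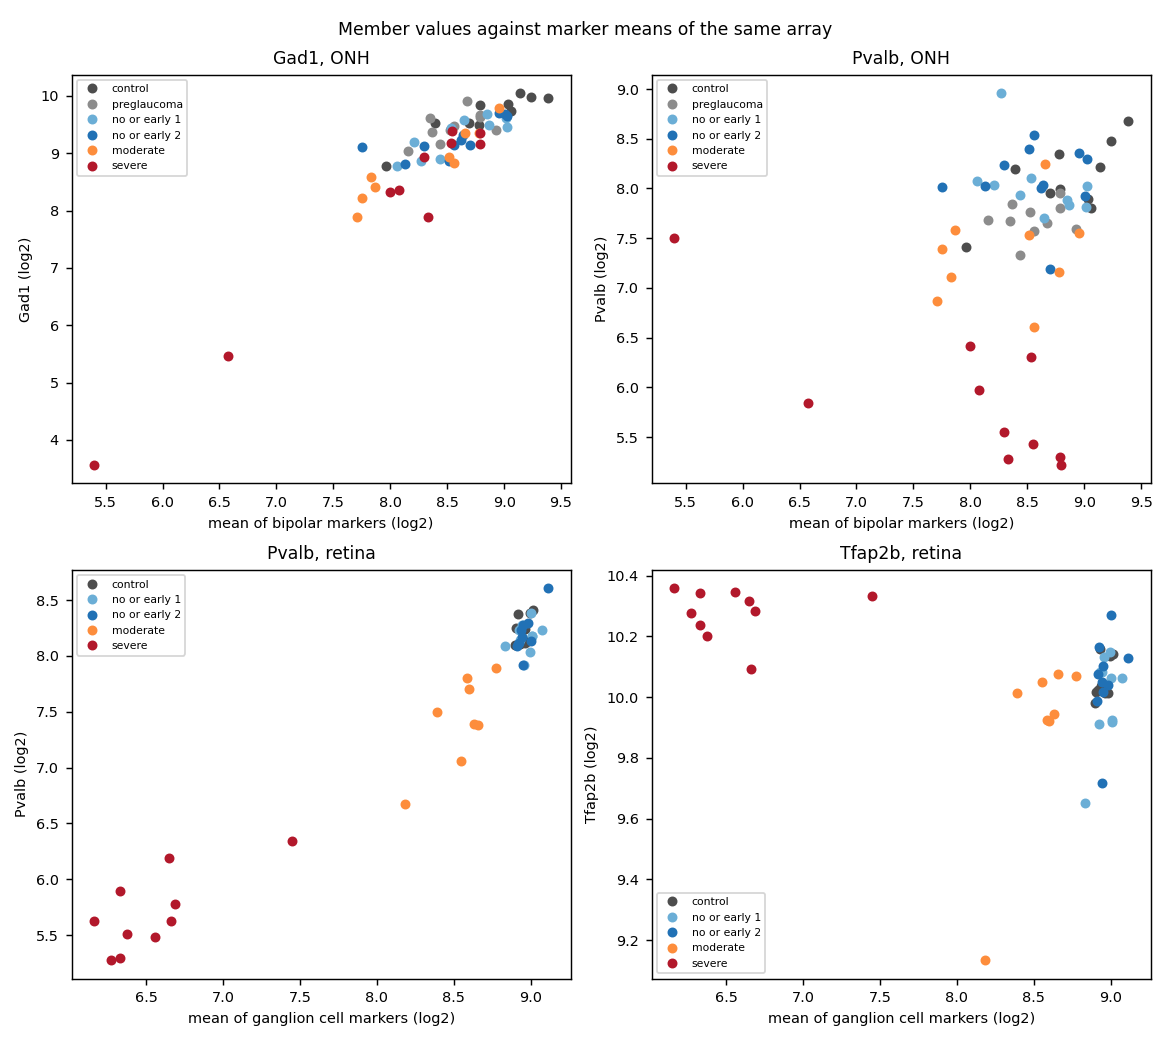
Each point is 1 array, with a member's log2 signal against the mean log2 signal of a marker list in the same array, coloured by stage. In the ONH Gad1 follows the bipolar mean down to 5.40 and Pvalb does not, and in the retina Pvalb falls with the ganglion cell mean while Tfap2b is highest in severe eyes.

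Moderate against control ONH gave 4 lower members, Calb2, Pvalb, Slc32a1 and Slc6a9, beside 21.6% of all genes called and 11.9% called lower. Slc32a1 fell by 0.78 ± 0.276 (adjusted p = 0.0344) and Slc6a9 by 0.50 ± 0.136 (adjusted p = 0.00609). Gad1 was at -0.85 ± 0.393 (adjusted p = 0.12), Gad2 at -0.82 ± 0.426 (adjusted p = 0.169), Tfap2b at -0.82 ± 0.326 (adjusted p = 0.0629) and Calb1 at -0.87 ± 0.385 (adjusted p = 0.102). Without the arrays that stood apart all 8 passed, beside 33.5% of all genes. Within the control range of mouse numbers none did, beside 1.69% of all genes. Moderate against no or early eyes gave 2 lower members in the ONH, Calb2 and Pvalb, beside 7.47% called, and in the retina the same 4 members as against control, beside 15.2% called. Severe against moderate ONH gave 2 lower members, Calb2 at -1.89 ± 0.26 and Pvalb at -1.45 ± 0.194, beside 3.74% called.

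No member passed before moderate disease in limma's test, and none had an unadjusted p under 0.05 in no or early against control eyes of either tissue. In no or early against control eyes, 2.86% of all genes were called in the ONH and 0.0442% in the retina. Pvalb was at -0.03 ± 0.166 in the ONH (95% interval -0.36 to 0.30) and at -0.04 ± 0.0982 in the retina (-0.24 to 0.16). Gad1 was at -0.40 ± 0.331 in the ONH (-1.06 to 0.26) and at 0.03 ± 0.0821 in the retina (-0.13 to 0.20). Without the arrays that stood apart, Calb1, Gad1 and Tfap2b passed in the ONH, at -0.52, -0.49 and -0.56. In that setting 11.4% of all genes were called.

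Preglaucoma ONH, from mice of 4.5 months, showed no member that passed against the older controls, beside 6.08% of all genes, and 2, Slc32a1 and Pvalb, had an unadjusted p under 0.05. Slc32a1 came closest, at a lowest of 5.73, a median of 5.97 and a highest of 6.31, and 7 of 10 preglaucoma arrays lay below every control. Its difference was -0.64 ± 0.272 (adjusted p = 0.156), and -0.72 with an adjusted p of 0.0188 without the arrays that stood apart. Age, Gpnmb genotype, mouse number range and the lower array medians separate this group from the controls and cannot be told apart from its stage. No or early against preglaucoma ONH likewise gave no member, beside 14.6% of all genes, and Pvalb alone had an unadjusted p under 0.05.

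The severe effect was larger in the ONH than in the retina of the same eye for 7 of 8 members. This was tested on the ONH minus the retina signal of each eye, where 19.5% of 10763 genes were called and 12.3% were called lower. The bipolar marker mean, used above as a covariate in the ONH, was not put into this model. The ONH minus retina difference of the severe effect was -1.90 ± 0.423 for Gad1 (adjusted p = 0.00107), -1.60 ± 0.348 for Tfap2b (adjusted p = 0.000801), -1.58 ± 0.259 for Calb2 (adjusted p = 1.85e-05) and -0.58 ± 0.148 for Slc6a9 (adjusted p = 0.0038). These values shrank once the arrays that stood apart were left out, severe ONH replicates 3 and 6 among them, to -1.10 for Gad1, -1.001 for Tfap2b, -1.24 for Calb2 and -0.41 for Slc6a9, and Slc32a1 lost its call at -0.65 (adjusted p = 0.054). Within the control range of mouse numbers Slc6a9 lost its call at -0.38 (adjusted p = 0.0971). For Pvalb the difference of the severe effect with all arrays was 0.32 ± 0.22 (95% interval -0.12 to 0.76, adjusted p = 0.329). Against no or early eyes the severe effect differed for 6 members, all but Slc32a1 and Pvalb, beside 15.2% called. The count was 2 without the arrays that stood apart, and 0 members passed within the control range of mouse numbers, beside 1.74% of all genes. The moderate effect did not differ between tissues beyond the test for any member, beside 7.13% of genes called. Calb2, Slc32a1 and Slc6a9 had an unadjusted p under 0.05. Without the arrays that stood apart 7 members passed there, beside 16.1% of genes called in that setting.

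**Figure D4:**
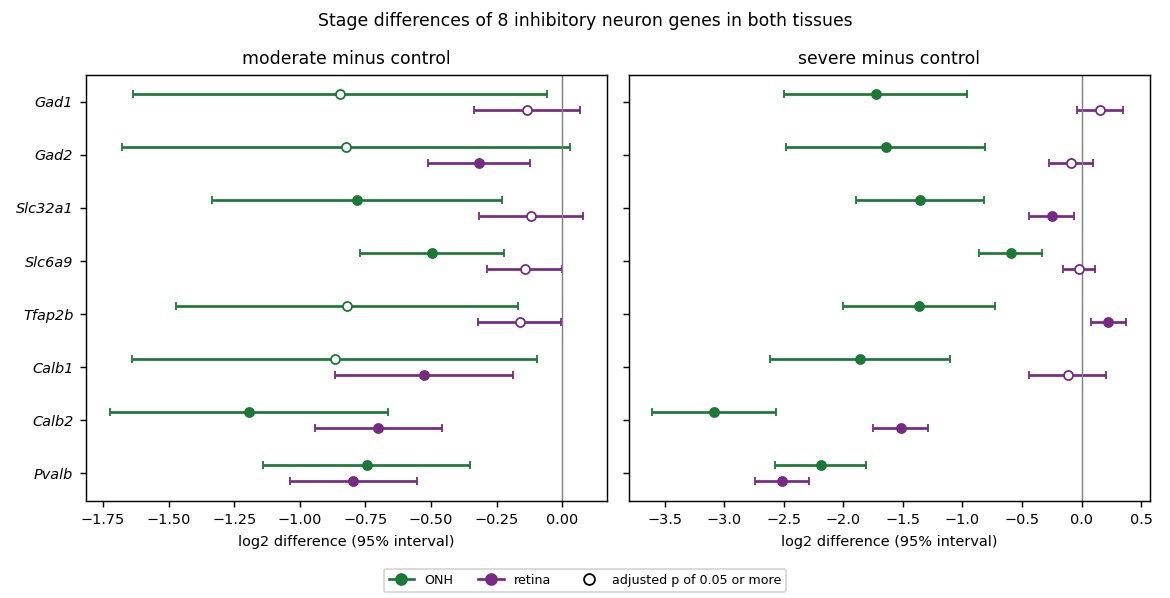
Log2 difference from control with its 95% interval for the 8 tested members, in moderate (left) and severe eyes (right) and in ONH (green) and retina (purple), with open points where the adjusted p was 0.05 or more. In severe eyes all ONH points lie left of 0, while in the retina Calb2 at -1.52 and Pvalb at -2.51 lie far from the others.

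In 2 mice 1 eye was moderate and the fellow eye severe, which compares stages within an animal. Pvalb was lower in the severe eye by 0.894 and 1.87 in the retina and by 1.31 and 1.32 in the ONH. Calb2 was higher in the severe eye by 0.769 in the first pair and lower by 0.944 in the second in the retina, and lower by 0.761 and 3.89 in the ONH. Gad1 was higher in the severe eye by 1.50 and 0.222 in the retina, and the first of these pairs includes moderate replicate 2. In the ONH Gad1 differed by 0.324 in the first pair and by -3.90 in the second, whose severe eye is replicate 3.

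Other genes of inhibitory transmission were counted from lists in both tissues, with no test of the difference between tissues. All counts are for severe against control eyes, where 18.2% of all genes were called lower in the retina and 13.5% in the ONH. Of 10 GABA receptor subunits tested in the retina, 4 fell, with Gabrg1 at -0.50 ± 0.15 (adjusted p = 0.00873) and Gabrb2 at -0.34 ± 0.0899 (adjusted p = 0.00274) among them, and in the ONH 10 of 11 fell. Of 9 genes of GABA and glycine handling, the retina had 1 higher, the glycine transporter Slc6a5 at 0.28 ± 0.0887 (adjusted p = 0.0129), and 1 lower, the synapse adhesion gene Nlgn2 at -0.32 ± 0.0786 (adjusted p = 0.00132), and the ONH had 8 lower. Of the glycine receptor subunits 1 of 4 fell in the retina, Glra1 at -0.34 ± 0.0995 (adjusted p = 0.00739), and 3 of 3 fell in the ONH. The median difference of the GABA receptor list was -0.16 in the retina and -1.08 in the ONH.

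Amacrine genes outside the members were counted in severe against control retina, where 32.0% of all genes were called, 18.2% lower and 13.8% higher. Of 11 amacrine transcription factors, 2 were lower, Ebf3 at -0.59 ± 0.0974 (adjusted p = 5.05e-06) and Barhl2 at -0.34 ± 0.0902 (adjusted p = 0.00306). Of 11 further amacrine markers 2 were lower, Stx1a at -0.43 ± 0.154 (adjusted p = 0.0271) and Ppp1r17 at -0.31 ± 0.085 (adjusted p = 0.00439). Pax6, a transcription factor of amacrine and ganglion cells, was at 0.10 ± 0.0612 (adjusted p = 0.20). Of 9 neuropeptide and monoamine genes 2 were lower, Tac1, which encodes substance P, at -0.26 ± 0.0478 (adjusted p = 3.56e-05) and Sst, which encodes somatostatin, at -0.27 ± 0.102 (adjusted p = 0.0344). Of 4 tested partners of cholinergic amacrine cells, Sox2 at 0.36 ± 0.0684 (adjusted p = 6.42e-05) and Megf10 at 0.19 ± 0.0742 (adjusted p = 0.04) were higher and Megf11 at -0.34 ± 0.0594 (adjusted p = 1.61e-05) was lower. Sox2 is also made by Müller glia, of whose 9 tested markers 6 were higher in severe retina, at a median difference of 0.28. In severe ONH, 7 of 11 amacrine transcription factors, 9 of 10 amacrine markers and 3 of 6 horizontal cell markers were lower, and in severe retina 1 of 6 horizontal cell markers was higher and none lower.

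The 3 genes most like each member in pattern were found in each tissue. Likeness was the Pearson correlation over all arrays of a tissue, which share the stages. In the 48 retina arrays Pvalb was closest to Sncg (r = 0.985), Rgs4 (0.982) and Nefl (0.977), of which Sncg and Nefl are on the ganglion cell marker list. Calb2 was closest to Fgf1 (r = 0.985), Cplx1 (0.984) and Sult4a1 (0.983). Gad1 was closest to Sphkap (r = 0.918), and Tfap2b to Esrrg (0.869), over arrays that include moderate replicate 2. In the 60 ONH arrays Pvalb was closest to Nefm (r = 0.894), Calb2 to Vsnl1 (0.978), Gad1 to Tfap2c (0.98), Gad2 to Nhlh2 (0.979), Tfap2b to Celf4 (0.971), Calb1 to Cntn4 (0.971), Slc32a1 to Dusp26 (0.931) and Slc6a9 to Slc24a3 (0.929).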

How the data were processed

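The deposited table held log2 signals of 45101 probe sets made by the authors with GCOS and the RMA method of affy, per the submitters' processing notes, with versions not given in the sources used here. Whether both tissues were normalized together is not given, so each was fitted apart, with ONH minus retina tested within eyes. Groups came from the array titles. The probe set with the highest mean in a tissue stood for a gene, and genes needed at least 8 arrays at or over a log2 signal of 5. Differences came from limma 3.58.1 in R 4.3.3, with mouse as a random block (within-mouse correlation 0.0774 in ONH, 0.0366 in retina and 0.0987 for ONH minus retina) and Benjamini-Hochberg adjustment over all genes tested, called at 0.05. The number of arrays limits the precision, and the scripts were tested on simulated data. The genes named were the members, the 3 genes most correlated with each, up to 4 called genes of largest change per list, and a few fixed markers; the muscle genes were added after their values were seen. Members and lists were chosen with earlier results of these data known. Alternatives changed probe sets, filter, arrays, covariates and blocks. Chat was left out of tests. Of the probe sets, 34958 named 1 gene, 932 several and 9211 none.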

Additional observations from a re-analysis of the deposited data

Results flagged for a closer look

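Of 90 groups of member values, 20 held an array set apart from the others by Dixon's criterion. Chance gives about 1 in 20 groups if groups are independent, but these groups share arrays, so that rate is no measure for them. ONH no or early set 2, with 11 arrays, was not examined. Retina moderate replicate 2 was low for 7 members, with Calb1 at 7.39, Calb2 at 7.24, Gad1 at 9.15, Gad2 at 9.01, Slc32a1 at 6.66, Slc6a9 at 10.99 and Tfap2b at 9.13. ONH control replicate 10 was low for Calb1 at 7.31, Gad1 at 8.78 and Gad2 at 8.42. ONH severe replicate 6 was low for Slc6a9 at 10.15 and high for Pvalb at 7.50. No or early 1 replicate 3 was low in the retina for Gad1 at 10.04 and Tfap2b at 9.65, and high in the ONH for Pvalb at 8.96. Single values set apart were Calb1 in ONH preglaucoma replicate 4 at 8.0003, Calb1 in retina severe replicate 6 at 9.37, Chat in retina control replicate 4 at 4.00, Gad2 in retina control replicate 2 at 10.15 and Tfap2b in retina no or early 2 replicate 2 at 9.72.

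The severe minus control difference was not the same in ONH and retina within eyes for 7 members, by limma's test of the difference, beside 19.5% of all genes called. The ONH minus retina values were -1.76 for Calb1 (adjusted p = 0.00179), -1.58 for Calb2 (1.85e-05), -1.90 for Gad1 (0.00107), -1.57 for Gad2 (0.0112), -1.12 for Slc32a1 (0.00948), -0.58 for Slc6a9 (0.0038) and -1.60 for Tfap2b (0.000801). Against no or early eyes, where 15.2% of all genes were called, they were -1.31 for Calb1 (adjusted p = 0.00843), -1.22 for Calb2 (0.000119), -1.45 for Gad1 (0.0046), -1.29 for Gad2 (0.019), -0.39 for Slc6a9 (0.0305) and -1.19 for Tfap2b (0.00464). Without the arrays that stood apart, the values against control were -1.13 for Calb1, -1.24 for Calb2, -1.10 for Gad1, -0.73 for Gad2, -0.65 for Slc32a1, -0.41 for Slc6a9 and -1.001 for Tfap2b, and 2 of the 8 tested members passed against no or early eyes. Over all alternative settings, 1.74% to 17.4% of all genes were called against no or early eyes.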

How the results depend on the processing

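Over the 8 tested members, 184 counts of calls stayed within 1.5 times the reported count under another setting and 37 did not. Severe against control ONH, with 8 calls, gave 4 with the bipolar mean as a covariate, and severe against no or early ONH, with 8, gave 4 with that covariate and 2 within the control range of mouse numbers. Moderate against control ONH, with 4 calls, gave 8 with array weights, with only the compared groups, with the photoreceptor mean as a covariate and without the arrays that stood apart, 1 with the number range of the mice in the model and 0 within the control range. Moderate against no or early ONH, with 2, gave 7 with the photoreceptor covariate and without the arrays that stood apart, 1 with the range factor and 0 within the control range. No or early against control ONH, with 0, gave 3 without the arrays that stood apart. No or early against preglaucoma, with 0, gave 1 higher with array weights, the mean of all probe sets, only the compared groups and without the arrays that stood apart. With the bipolar covariate it gave 1 lower. Preglaucoma against control, with 0, gave 2 with only the compared groups and 1 with array weights, the mean of probe sets, the photoreceptor covariate and without the arrays that stood apart. In the retina, moderate against control, with 4, gave 2 with the range factor, within the control range and with only the compared groups, moderate against no or early, with 4, gave 1 within the control range and 2 with only the compared groups, and severe against moderate, with 5, gave 2 and 3 in the same settings. For ONH minus retina, the moderate effect, with 0, gave 1 with array weights, 2 with only the compared groups, 1 without the arrays of low Xist and 7 without the arrays that stood apart, and severe against no or early, with 6, gave 0 within the control range and 2 without the arrays that stood apart. Gad2 in severe against no or early retina reversed, from -0.01 to 0.26 ± 0.0853 (adjusted p = 0.0107) with the mean of all probe sets. The causes of these changes were not tested. The settings that leave arrays out also hold fewer arrays. Samples that share a label number had a median correlation of deviations of 0.107 in ONH (-0.0175 for other pairs) and -0.00185 in retina (0.00161), with lowest values of -0.557 and -0.545. Of the arrays, 18 of 60 ONH and 9 of 48 retina arrays correlated best with their own number, and no chance rate was computed for these counts. In the glaucoma groups the numbers largely followed the order of the mouse numbers. The numbers were not taken as a pairing in the main model, although same-number ONH arrays were more alike than other pairs. With the replicate block moderate against control ONH gave 6 calls, with Calb1 at -0.97 (adjusted p = 0.05) and Tfap2b at -0.91 (adjusted p = 0.0273) added, severe against moderate retina kept 5 with Gad2 at 0.25 (adjusted p = 0.0307) in place of Calb1 at 0.41 (adjusted p = 0.052), and the block changed no other call. The share of all genes called ran from 12.2% to 29.6% in severe against control ONH, from 1.69% to 33.5% in moderate against control ONH, and from 19.6% to 49.1% in severe against control retina. In severe against no or early ONH it ran from 2.01% to 19.8%. The lowest share in each of these comparisons came within the control range of mouse numbers. The control range could not be run alone for preglaucoma or for no or early set 2 against set 1.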
